A study of Mus musculus with 6 samples.

Results

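The Fox, Sox, Gata and Tbx genes encode 4 families of DNA-binding transcription factors, and their promoters were examined in PGCLCs (primordial germ cell-like cells) of the mouse, which are cultured counterparts of the embryonic precursors of eggs and sperm. The genes were taken by symbol from the protein-coding genes of chromosomes 1 to 19, without Sox2 and Tbx3. The symbol rule itself uses no measured value. This gave 74 of 20722 genes, of which 41 were Fox, 17 Sox, 5 Gata and 11 Tbx genes. Members on the sex chromosomes, such as Sox3, Gata1 and Foxp3, were thereby left out.

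The series holds 6 chromatin immunoprecipitation sequencing (ChIP-seq) samples, all from untreated day 2 PGCLCs of strain 129Sv/J. There were 2 samples with an antibody to the HA tag that the cells carry at the C-terminus of Tex10, 2 of input DNA, and 2 with an antibody to H3K4me3, histone H3 trimethylated at lysine 4. All groups share the cell type, day and strain, so no condition is compared, and the labels do not say whether the cells came from 1 clone. The data used are 1 interval list for each antibody, without replicate values or scores, so the values below carry no replicate error, the depth is unknown and no test was run. A width is the length in bp of a listed interval, not a signal height. Some listed intervals were very short, such as 3 bp near Foxd3, and the lowest width of any gene with H3K4me3 was 1 bp. How such short entries arose is not given in the sources used here, so a listed interval need not be a whole peak.

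Fox proteins bind DNA through a forkhead domain, Sox proteins through an HMG box, Gata proteins through zinc fingers and Tbx proteins through a T-box. Many of these factors direct the choice between endoderm, mesoderm and neural fates, while others, such as the Foxo, Foxk and Foxp4 genes, are expressed in many tissues. H3K4me3 marks promoters, above all those rich in CpG dinucleotides, and in pluripotent cells it also lies at many silent developmental genes together with the Polycomb mark H3K27me3, which was not measured here. Tex10 is known as a partner of the stem cell factor Sox2 and as part of a complex with roles in ribosome maturation.

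The sequences of 4 of the HA-Tex10 intervals nearest to these genes are shown first, because so few of the genes had one. Sequences are those of the GRCm38.p6 reference (RefSeq), which is of another strain than the cells, and are written 5′ to 3′ on the strand of the named gene, with CpG dinucleotides in capitals. Of the Sox15 interval the central 300 bases are given, and of the Tbx6 interval the 51 bases outside an annotated untranslated exon of its neighbour Ypel3.
Foxj3, chr4:119539301-119539503, plus strand: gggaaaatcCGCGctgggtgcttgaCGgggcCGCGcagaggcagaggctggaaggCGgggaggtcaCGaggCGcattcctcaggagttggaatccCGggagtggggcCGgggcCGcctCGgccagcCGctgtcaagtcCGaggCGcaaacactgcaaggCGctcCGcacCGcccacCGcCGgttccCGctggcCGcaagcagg
Sox15, chr11:69654717-69655016, plus strand: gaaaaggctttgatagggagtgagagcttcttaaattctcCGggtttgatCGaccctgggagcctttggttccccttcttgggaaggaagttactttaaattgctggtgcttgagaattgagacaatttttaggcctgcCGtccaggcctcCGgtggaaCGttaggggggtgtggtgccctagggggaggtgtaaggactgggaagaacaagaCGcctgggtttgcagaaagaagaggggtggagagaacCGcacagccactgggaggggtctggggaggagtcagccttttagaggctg
Tbx6, chr7:126780515-126780565, plus strand: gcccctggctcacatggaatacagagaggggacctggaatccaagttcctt
Gata2, chr6:88199606-88199742, plus strand: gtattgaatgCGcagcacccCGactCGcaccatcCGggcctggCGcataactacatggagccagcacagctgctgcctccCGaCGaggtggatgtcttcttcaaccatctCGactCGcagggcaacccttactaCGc
The Foxj3 interval held 22 CpG dinucleotides in 203 bases, the Sox15 stretch 7 in 300, the Tbx6 stretch 0 in 51 and the Gata2 interval 10 in 137. Among the 7 motifs searched (listed with the promoter results), the Foxj3 sequence held a GC box and the others held none.

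At 4 of the 74 genes a protein-coding transcription start site (TSS) had an HA-Tex10 interval no more than 1 kb away, 5.41% (95% Wilson interval 2.12 to 13.1%), where 9.13% of all protein-coding genes had one. The Wilson intervals here cover the counting of genes only and treat genes as independent. The share of all genes lies inside the interval, so a difference in this share was not detectable. Among the 62 members with H3K4me3 within 1 kb, 2 had an HA-Tex10 interval (3.23%, 0.889 to 11%), against 14.3% of all genes with H3K4me3. The other two were among the 12 members without H3K4me3, a class in which 0.477% of all genes had an HA-Tex10 interval.

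Foxj3, a broadly expressed forkhead gene on chromosome 4, had an HA-Tex10 interval of 203 bp, from -360 to -158 bp relative to the nearest of its 7 coding TSS. It lay inside an H3K4me3 interval of 1974 bp. The interval lies within the Foxj3 gene but outside its exons, and all of its 203 bases are annotated as exon of Frg2f1, a gene on the opposite strand whose TSS is 532 bp away. Which of these genes the interval belongs to cannot be told from its position.

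Sox15 encodes a relative of Sox2 that is expressed in embryonic stem cells. Its HA-Tex10 interval of 390 bp was the widest of the 4, spanned -642 to -253 bp relative to the single TSS and reached into an H3K4me3 interval of 1504 bp. No annotated gene covers this interval, and the nearest TSS of another coding gene, Mpdu1, was 7503 bp away. It was the only interval of the 4 at or above the median width of the HA-Tex10 list.

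Foxl1, a forkhead gene of the gut mesenchyme, had an interval of 141 bp that ended 32 bp upstream of its TSS, with no H3K4me3 closer than 2101 bp to it. The overlapping coding gene Gm20388, on the same strand, also spans this interval, but none of its exons does. Foxl1 lies on chromosome 8, where 41.2% of genes with H3K4me3 and 2.03% of genes without it had HA-Tex10, compared with 12.7% of genes with H3K4me3 on the other chromosomes. At Tbx6, a T-box gene of the presomitic mesoderm, the interval of 88 bp lay at -1005 to -918 bp, partly over an exon of Ypel3, and 2349 bp from the nearest H3K4me3. The Foxl1 and Tbx6 intervals were thus the pair without H3K4me3, and both were narrow.

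A further 3 genes had an HA-Tex10 interval beyond 1 kb and within 5 kb, which makes 7 of 74 genes (9.46%, 4.66 to 18.3%) where 11.2% of all genes qualified. At Foxd4 the interval of 344 bp began 1033 bp downstream of the TSS, wholly in coding sequence and inside an H3K4me3 interval of 850 bp. Gata2, a regulator of blood stem cells, had an interval of 137 bp starting 1272 bp downstream of its nearest TSS, again wholly in coding sequence and inside an H3K4me3 interval, here of 313 bp. At Sox1, a marker of the early neural plate, the interval of 103 bp lay 4397 bp upstream, in an exon of the overlapping transcript Sox1ot. No HA-Tex10 interval contained a TSS of a member (0 of 74, 0 to 4.93%), where 4.06% of all genes had such an interval. The share of all genes lies inside the Wilson interval, so a difference was not detectable here either.

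The widest H3K4me3 intervals of the families had no HA-Tex10. When all genes with H3K4me3 were ranked by width into 5 classes of near equal size, the share with HA-Tex10 was 5.36% in the narrowest, then 10.2, 14.4 and 17.2%, and 24.4% in the widest. Of the members, 20 fell in the narrowest class and 0 had HA-Tex10, 13 in the next with 0, 6 in the middle with 1, 9 in the class after that with 1, and 14 in the widest with 0. The Fox, Sox, Gata and Tbx genes also had few coding neighbours, with a median of 2 coding genes within 100 kb (interquartile range 0 to 4) against 3 (1 to 7) for all genes. In the third of genes with the fewest neighbours, 0 to 2, HA-Tex10 was present at 9.26% of genes with H3K4me3 and at 1 of 38 members. The part of interval width and gene density in the low count was not tested. The median distance from a TSS to the nearest HA-Tex10 interval was 210837 bp for the members and 146982 bp for all genes.

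**Figure D1:**
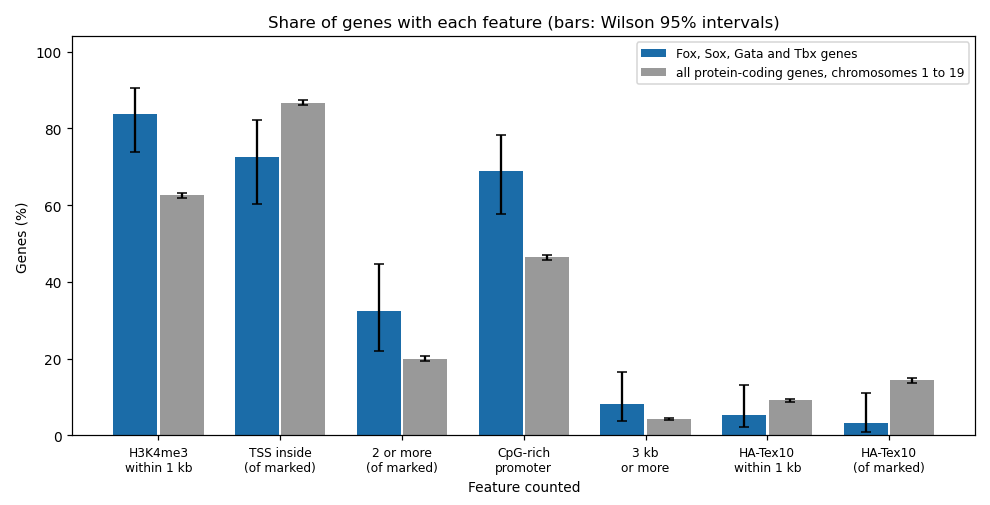
Bars give the percentage of genes with each feature for the 74 Fox, Sox, Gata and Tbx genes (blue) and all 20722 protein-coding genes of chromosomes 1 to 19 (grey), with Wilson 95% intervals as error bars. "Of marked" counts only genes with H3K4me3 within 1 kb of a TSS. The blue bar is the higher one for H3K4me3 (83.8 against 62.6%) and CpG-rich promoters, and the lower one for HA-Tex10 among marked genes (3.23 against 14.3%).

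H3K4me3 was present within 1 kb of a TSS at 62 of the 74 genes, 83.8% (73.8 to 90.5%), where 62.6% of all genes had it. When an interval had to contain a TSS, the shares were 60.8% (49.4 to 71.1%) and 54.3%, and a difference was not detectable. By family, 35 of 41 Fox, 15 of 17 Sox, 5 of 5 Gata and 7 of 11 Tbx genes were marked. The 12 unmarked genes were Foxi1, Foxi2, Foxl1, Foxn1, Foxq1, Foxs1, Sox5, Sox14, Tbx6, Tbx10, Tbx19 and Tbx20. Several of these are known for roles in few tissues, such as Foxn1 in the thymus, Tbx19 in the pituitary and Tbx20 in the heart. Such factors were also among the marked genes, as with Foxj1 (483 bp) and Tbx21 (891 bp). For 4 of the 12 unmarked genes H3K4me3 lay further off and within 5 kb, at 1716 bp for Foxq1, 2273 bp for Foxl1, 3354 bp for Tbx6 and 3904 bp for Sox14.

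The Foxq1 interval, 2199 bp wide, lay within the gene and at a TSS of the neighbouring gene A530084C06Rik. Sox5, a gene of 953553 bp with 7 coding TSS, had H3K4me3 on none of them, but an interval of 982 bp covered the start of a non-coding transcript at the 5′ end of the gene, 572116 bp from the nearest coding TSS. Counting the TSS of all annotated transcripts added Sox5 alone and gave 63 marked genes.

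The marked genes differed widely in the width of their interval. The widest interval of a gene ranged from 187 bp at Sox7 to 5254 bp at Foxo3, with a median of 1131.5 bp (95% interval of the median from binomial order statistics 891 to 1617 bp, n = 62), against a median of 1360 bp (interquartile range 879 to 1981 bp) for all 12966 marked genes. The 1360 bp of all marked genes lies inside the 95% interval of 891 to 1617 bp, so a difference in median width was not detectable. There were 25 members above and 37 below the median of all marked genes. Narrow and wide intervals were thus both common, with 20 and 14 members in the narrowest and widest of the 5 width classes.

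Intervals of 3 kb or more occurred at 6 genes, 8.11% (3.77 to 16.6%), where 4.12% of all genes had one, and at 9.68% of the marked members against 6.59% of all marked genes. Foxo3, which encodes a factor that restrains the cell cycle and keeps oocyte follicles dormant, had the widest at 5254 bp, wider than 99.5% of marked genes. Foxp4 followed at 4914 bp. Sox11 (4553 bp) and Sox4 (4323 bp), both of the SoxC group that acts in neural and other progenitors, came next. The others were Foxo1 (3551 bp), a target of insulin signalling, and Sox1 (3181 bp), which was just inside 3 kb. Just outside were Foxn2 at 2994 bp and Foxd3, a gene of the epiblast and neural crest, at 2937 bp. Sox21 (2830 bp) and Sox12 (2775 bp) completed the 10 widest.

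At the other end stood Sox7 (187 bp), a gene of endoderm and vessels, Foxb2 (256 bp), Tbx1 and Tbx5 (both 257 bp), which act in the pharynx and heart, and Foxr1 (279 bp). The Gata genes were all below the median of all marked genes, with Gata5 at 1001 bp, Gata3 at 747 bp, Gata6 at 682 bp, Gata2 at 415 bp and Gata4 at 349 bp. Of the 7 marked Tbx genes, Tbx18 was the widest at 1884 bp and the median was 1105 bp. The median was 1237 bp for the 35 marked Fox genes and 1504 bp for the 15 marked Sox genes, with overlapping ranges.

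**Figure D2:**
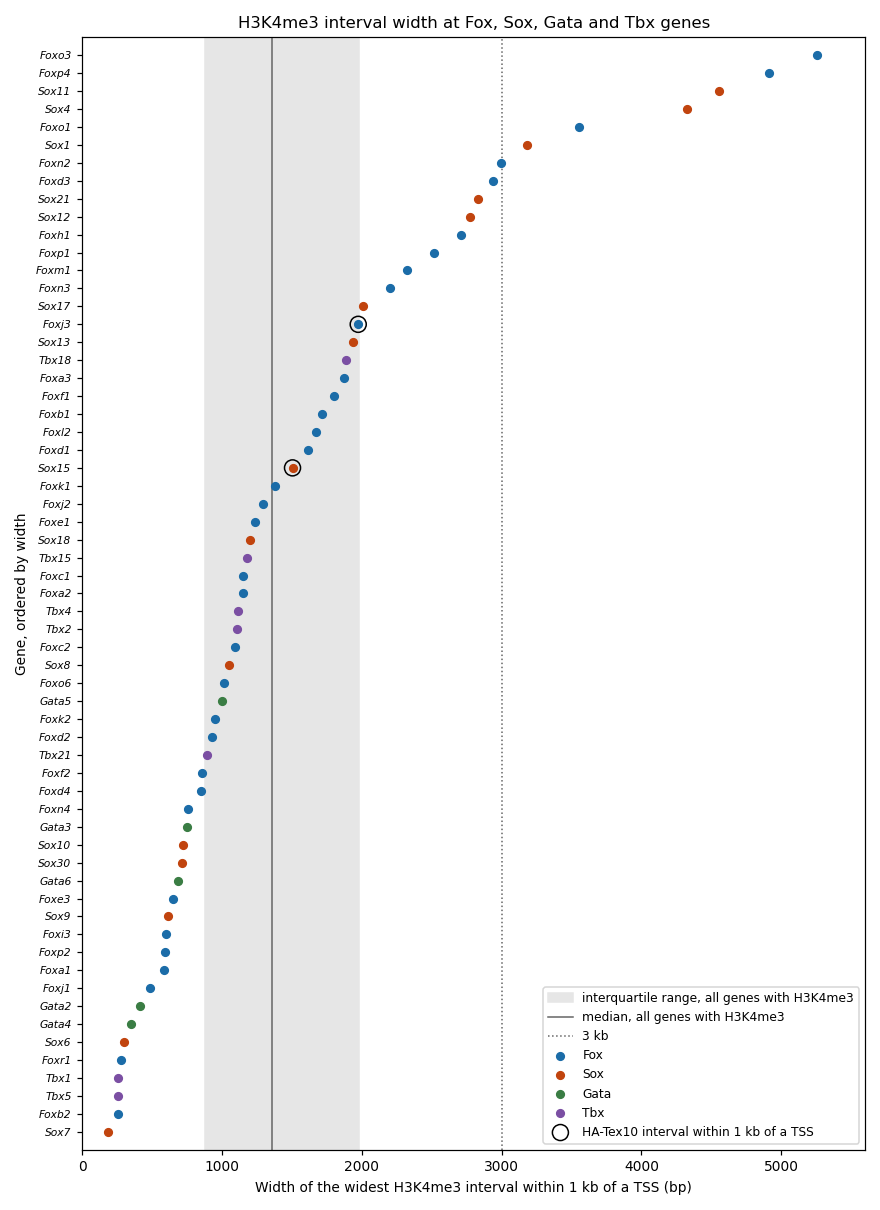
Each point is a gene with H3K4me3 (1 of the 62 is not shown), placed by the width of its widest H3K4me3 interval within 1 kb of a TSS (x axis, bp) and coloured by family. The grey band and line give the interquartile range and median of all 12966 marked genes, and open circles mark genes with HA-Tex10 within 1 kb. The 6 genes right of the dotted 3 kb line carry no circle, and the Gata genes all lie left of the grey line.

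The genes were also grouped by known role. The role lists were drawn up from textbook knowledge, overlap in part, and hold 61 of the 74 genes in 6 lists. They were drawn up with earlier results of these data known, so the widths by list are a description only. For the counts by list, 83.8% of the 74 members and 62.6% of all genes were marked. All 14 broadly expressed genes had H3K4me3, at widths of 946 to 5254 bp around a median of 2422 bp, and 12 of the 14 were wider than the median of all marked genes. Among them Foxm1, which drives entry into mitosis, had 2325 bp, and Foxk2, a glycolysis and autophagy regulator, had the least with 946 bp. Of the 47 genes listed only under a lineage, 40 were marked, with a median of 1024 bp (187 to 4553 bp). Of these 40, 13 were wider than the median of all marked genes.

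All 9 endoderm genes were marked, at a median of 1001 bp and never above 2708 bp. Foxh1, the partner of Smad proteins in Nodal signalling, had this highest value, Sox17 had 2010 bp, and Foxa2 and Foxa1, pioneer factors of the endoderm, had 1148 and 582 bp. Of the 14 mesoderm genes, 11 were marked at a median of 1105 bp, from Tbx5 (257 bp) to Tbx18 (1884 bp), with Foxf1 at 1801 bp and Sox9, the cartilage and testis factor, at 616 bp. Of the 17 neural genes, 14 were marked at a median of 989 bp, and the list held both narrow intervals, as at Sox6 (298 bp), and wide ones at Sox11 and Sox1. Of 6 blood and immune genes 5 were marked, at a median of 891 bp, with Foxo1 the widest and Tbx21, the Th1 factor, at 891 bp. The 4 gonad and germ cell genes were all marked, at 717 bp (Sox30), 1504 bp (Sox15), 1673 bp (Foxl2, the ovarian factor) and 5254 bp (Foxo3).

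Of 14 relatives outside the rule, 10 had H3K4me3, at widths of 292 to 6675 bp around a median of 2335 bp, and 3 of them had 3 kb or more. Sox2, with 6675 bp, was wider than any member, and Tbx3, with 3488 bp, had an HA-Tex10 interval 200 bp from a TSS. Mga (2421 bp), a T-box protein that pairs with Max, was the only other of these 14 genes with HA-Tex10. Eomes had 2421 bp, Trps1 3134 bp, T (brachyury) 461 bp and Tbr1 292 bp. On the X chromosome Foxo4 had 2249 bp, Foxp3 973 bp and Sox3 324 bp, while Gata1, Foxr2, Tbx22 and the Y-linked Sry had no H3K4me3 within 1 kb.

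As a check of the cell label, H3K4me3 was present at 6 of 10 germ cell markers, where 62.6% of all protein-coding genes had it. The 6 of 10 is near the share of all genes, so this count cannot decide on the label. Widths were 1363 bp at Prdm1, 1367 bp at Prdm14 and 812 bp at Tfap2c, with a median of 1357 bp. No H3K4me3 interval was within 1 kb of Dppa3, Nanos3, Ddx4 or Dazl, the nearest to Dppa3 being 1029 bp away. H3K4me3 was present at 10 of 10 epiblast markers (median 3208 bp) and 8 of 10 primitive streak or mesoderm markers (median 887 bp). Of the epiblast markers 6 had 3 kb or more (Otx2, Pou5f1, Tdgf1, Utf1, Fgf5 and Dnmt3b), against 0 of the germ cell markers and 4.12% of all genes. Whether these 6 genes are also active in PGCLCs was not tested, so this contrast cannot decide on the label either. H3K4me3 was present at 0 of 9 markers of differentiated tissue. By a rough limit of 3 counts over the number of genes, not a Wilson interval, this allows a share of up to 33.3%. Cells of other kinds in the culture cannot be told apart from a mark in the PGCLCs themselves, and this was not tested for any gene named here.

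H3K4me3 extended downstream of the start more than upstream. In the 42 genes whose widest interval contained a TSS, the median reach was 320.5 bp upstream of the first TSS in it and 1037.5 bp downstream, against 365 and 1004 bp in 10943 genes overall. The 11 Sox genes of this kind had 110 bp upstream and 1925 bp downstream. Sox11 had 110 bp upstream and 4442 bp downstream and Sox4 260 and 4062 bp, while Foxo3 reached 1955 bp upstream and 3298 bp downstream. Upstream of Sox11 another interval of 696 bp began 324 bp from the TSS.

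Coverage was also counted by distance from the start. At 400 bp downstream of the 5′-most TSS 69.4% of marked members were covered, their highest value, while all marked genes reached 85.3% at 200 bp. At 2400 bp downstream the order was the opposite, with 19.4% of members and 7.20% of all marked genes covered. At 600 bp upstream the values were 24.2 and 32.7%.

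**Figure D3:**
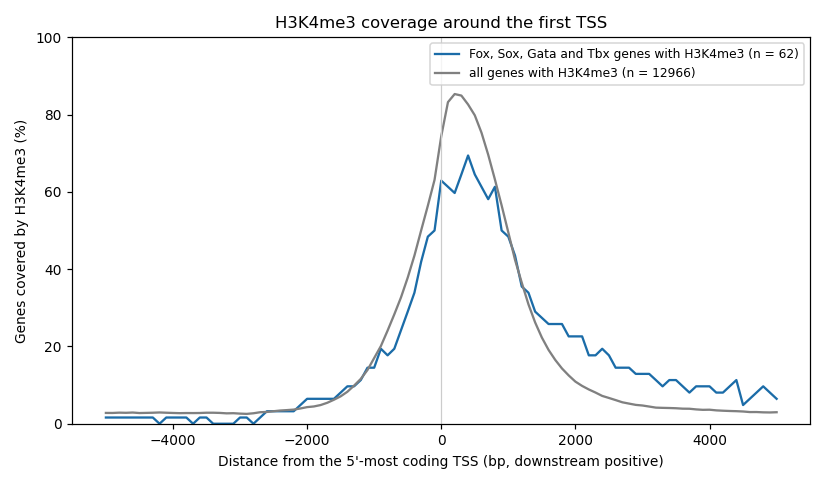
The lines give the percentage of genes covered by an H3K4me3 interval at each distance from the 5′-most coding TSS (x axis, bp, downstream positive), for the 62 marked Fox, Sox, Gata and Tbx genes (blue) and all 12966 marked genes (grey). The blue line is lower at its peak (69.4 against 85.3%) and higher at 2400 bp downstream (19.4 against 7.20%).

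Several of the genes are compact, and 17 have no intron. All annotated coding transcripts had a single exon in 17 of the 74 genes (23.0%), compared with 5.74% of all genes. H3K4me3 was present at 14 of these 17 (82.4%, 59 to 93.8%), where 35.5% of all intronless genes had it. Of the 17, 3 (Sox11, Sox4 and Sox1) had 3 kb or more (17.6%, 6.19 to 41%), against 3.28% of all intronless genes. Counting marked genes only, these were 3 of 14 members and 39 of all 423 marked intronless genes. Among marked members a median of 9.68% of the gene was covered, compared with 4.70% for all marked genes. At Foxd3 the mark covered 96.4% of a gene of 2324 bp, at Sox4 84.8% of 4795 bp, at Sox21 64.4% of 3799 bp and at Sox11 53.5% of 8311 bp. Foxh1, which has introns but is only 1724 bp long, was covered completely.

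**Figure D4:**
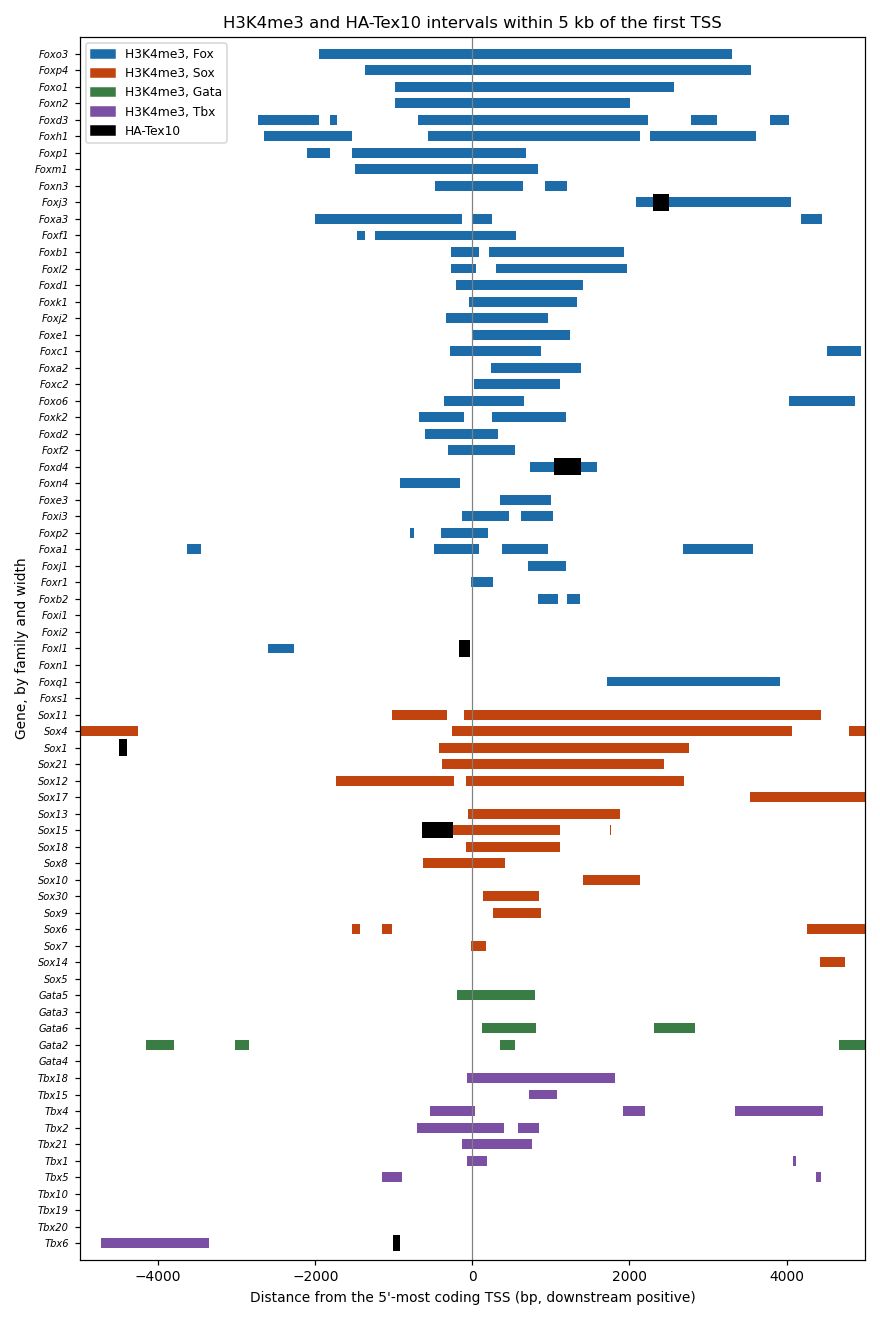
Every row is a member (1 of the 74 is not shown), ordered by family and interval width, with its H3K4me3 intervals (coloured by family) and HA-Tex10 intervals (black) within 5 kb of the 5′-most coding TSS (x axis, bp, downstream positive). Black bars appear at Foxj3, Foxl1, Foxd4, Sox15, Sox1 and Tbx6, while the HA-Tex10 interval of Gata2 is near a later TSS and falls outside the plotted window. Gata3 and Gata4 are marked at later TSS only, so their rows are empty like those of unmarked genes such as Tbx20.

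Among the marked members, 45 of 62 (72.6%, 60.4 to 82.1%) had a TSS inside an H3K4me3 interval, where 86.7% of all marked genes did. In the other 17 genes the nearest interval lay 3 to 893 bp from a TSS, at a median of 259 bp, and the widest interval had a median of 717 bp. For the 1718 genes without a TSS inside an interval among all marked genes, these medians were 83 and 679 bp. Examples are Sox9, with an interval from 259 to 874 bp downstream, Foxj1, the factor of motile cilia, from 713 to 1195 bp downstream, and Gata3, a factor of T cells and trophoblast, from -1086 to -340 bp. At Foxk2 intervals of 573 and 946 bp flanked the TSS, at distances of 105 and 244 bp.

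A pair or more of separate intervals at the TSS was seen at 20 of the 62 genes (32.3%, 22 to 44.6%), where 20.0% of all marked genes had this. Foxn3, a long gene with 6 coding TSS, had the most with 6 intervals of 280 to 2204 bp, and Foxp1, a factor of B cells and neurons with 14 coding TSS, had 4 of 129 to 2519 bp. The other 18 genes had 2 each. In some of these the narrower interval was very short, with 3 bp at Foxd3, 43 bp at Foxp2, 46 bp at Tbx1 and 56 bp at Tbx5. The Foxn3 intervals lay at 3 places in a gene of 373505 bp, and the Foxp1 intervals at 3 places in 597384 bp.

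The mark often lay at some of the start sites of a gene and not at others. The 74 genes had 170 distinct coding TSS, of which 106 (62.4%) had H3K4me3 within 1 kb, against 57.9% of the 52092 TSS of all genes. A TSS lay inside an interval in 44.7% of the member TSS and 46.9% of all TSS, so the order was the opposite. Of the 33 genes with more than 1 TSS, 13 had the mark at every TSS, 16 (48.5%) at some and 4 at none, and the share with some was 30.1% over all genes with more than 1 TSS. At Sox17 the mark was near 1 of 7 TSS, at Foxp2, a gene known for its part in speech, near 2 of 8, at Gata4 near 2 of 5, and at Sox6 near 1 of 8. A single coding TSS was annotated for 55.4% of the members and 36.9% of all genes.

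The DNA at the start sites was rich in CpG dinucleotides. Within 500 bp either side of the 5′-most TSS the median GC content was 62.4% for the members and 55.2% for all genes, and the ratio of observed to expected CpG was 0.745 against 0.576. With a ratio of at least 0.6 and a GC content of at least 50% as the definition, 51 members had a CpG-rich promoter (68.9%, 57.7 to 78.3%), compared with 46.4% of all genes. Of these 51, 48 had H3K4me3 (94.1%), where 97.1% of all CpG-rich promoters did. Of the 23 other promoters, 14 were marked (60.9%, 40.8 to 77.8%), against 32.6% of all such genes. The CpG class rests on the 5′-most TSS, while the mark was counted at any coding TSS. At Foxj3, Gata3, Gata4, Sox6 and Sox10 the mark was within 1 kb of a later TSS only. The 60.9% is therefore not the share of CpG-poor start sites that were marked.

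Marked members had a median ratio of 0.762 and the 12 unmarked ones 0.353. The 3 CpG-rich genes without the mark were Foxl1 (0.770), Tbx20 (0.628) and Sox14 (0.603). All 6 genes with 3 kb or more were CpG-rich (11.8% of 51 members, 7.36% of all CpG-rich genes), but so was Sox7, with the narrowest interval and a ratio of 0.769. At CpG-rich promoters the median width was 1175 bp in 48 members and 1492 bp in all 9345 marked genes, and no interval was computed for these medians. HA-Tex10 lay at 1 of the 51 (1.96%, 0.347 to 10.3%), the unmarked gene Foxl1, against 15.2% of all CpG-rich genes. Foxj3 counted as CpG-poor (0.180) because its 5′-most TSS lies away from the marked ones. Across the 62 marked members width rose only loosely with the ratio (Pearson r = 0.29, Spearman rho = 0.33), and the values for all 12966 marked genes were 0.27 and 0.36. These correlations are across genes that share 1 interval list and its libraries, and are given as a description.

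The 150 bases upstream of the 5′-most TSS show this contrast for the widest marked Fox and Sox genes and for the 2 unmarked genes with the lowest ratio, again with CpG in capitals.
Foxo3, chr10:42276756-42276905, minus strand: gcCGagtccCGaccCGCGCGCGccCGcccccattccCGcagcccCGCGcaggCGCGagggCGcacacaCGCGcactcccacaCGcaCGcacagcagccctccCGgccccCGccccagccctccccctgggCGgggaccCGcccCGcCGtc
Sox11, chr12:27342575-27342724, minus strand: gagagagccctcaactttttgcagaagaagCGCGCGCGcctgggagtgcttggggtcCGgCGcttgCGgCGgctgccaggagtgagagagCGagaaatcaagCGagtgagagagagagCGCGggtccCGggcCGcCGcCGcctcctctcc
Foxn1, chr11:78386559-78386708, minus strand: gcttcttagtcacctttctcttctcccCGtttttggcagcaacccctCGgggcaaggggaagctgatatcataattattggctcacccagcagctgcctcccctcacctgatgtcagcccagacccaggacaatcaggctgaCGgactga
Tbx10, chr19:3992602-3992751, plus strand: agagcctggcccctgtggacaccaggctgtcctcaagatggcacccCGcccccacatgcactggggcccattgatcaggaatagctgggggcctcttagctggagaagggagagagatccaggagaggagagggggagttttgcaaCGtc
Foxo3 had 23 CpG dinucleotides in these bases and Sox11 had 16, compared with 3 at Foxn1 and 2 at Tbx10. The GC content of these bases was 82.7% at Foxo3, 67.3% at Sox11, 55.3% at Foxn1 and 61.3% at Tbx10.

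**Figure D5:**
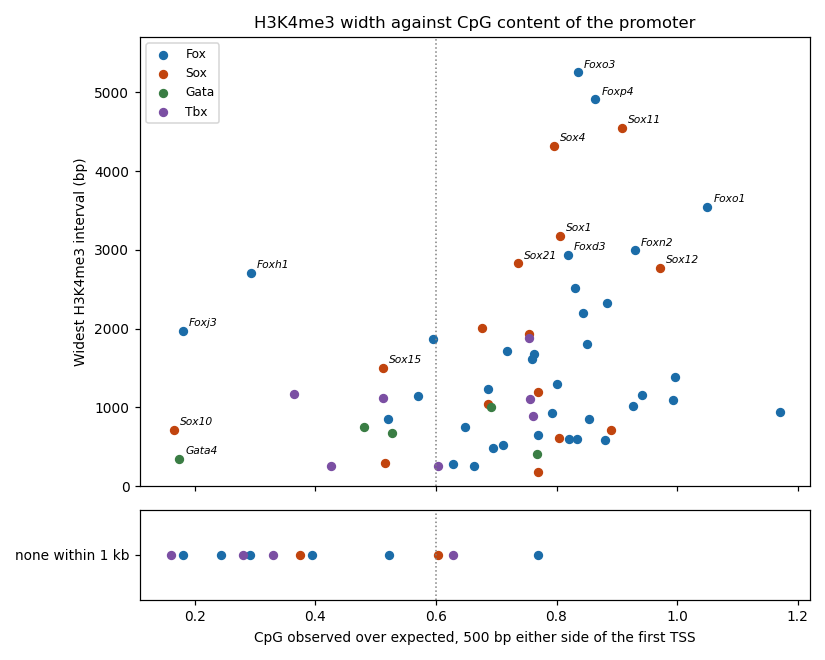
The upper panel plots the widest H3K4me3 interval of each marked member (y axis, bp) against the ratio of observed to expected CpG around its 5′-most TSS (x axis), coloured by family. The lower panel places the 12 unmarked members on the same x axis. Right of the dotted line at 0.6 lie the 6 genes of 3 kb or more, while 9 of the 12 unmarked genes lie left of it.

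In the promoter window from 250 bases before the 5′-most TSS to 50 after it, short motifs were counted on both strands for the 74 members and all genes. The GC box GGGCGG was found in 47 members (63.5%, 52.1 to 73.6%) and 44.5% of all genes. The FOX motif TGTTTAC was in 2 members (2.70%) and 3.03% of all genes, the SOX motif AACAAT in 2 (2.70%) and 9.74%, the GATA motif AGATAA in 2 (2.70%) and 9.83%, and the TBX motif AGGTGTGA in 1 (1.35%) and 1.21%. A gene with the motif of its own family was seen in 2 cases, Foxa1 and Gata4. The OCT motif ATGCAAAT was in 1 member, and the palindromic NRF1 motif in none (0 of 74, 0 to 4.93%), where 1.25% of all genes had it. None of the 7 motifs contains another on either strand, and a match is a description of the sequence only.

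The neighbours of these genes were counted too. A TSS of a non-coding RNA gene lay within 5 kb of the 5′-most TSS of 27 members (36.5%, 26.4 to 47.9%), compared with 11.6% of all genes. At 18 of the 62 marked members (29.0%, 19.2 to 41.3%) the H3K4me3 interval was also within 1 kb of such a TSS, against 12.3% of all marked genes. Named pairs of this kind are Foxf1 with Fendrr, a lncRNA of the lateral mesoderm, and Foxd2 with Foxd2os and Foxl2 with Foxl2os. At 4 of 62 members (6.45%, 2.54 to 15.4%) the interval was within 1 kb of another coding gene's TSS, where 20.3% of all marked genes were. Among them were Foxm1 with Rhno1, Foxj3 with Frg2f1 and Foxa3 with Sympk, and at these the mark cannot be assigned to 1 of the pair.

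H3K4me3 inside the gene and away from its coding TSS was seen in 25 members (33.8%, 24 to 45.1%), where 20.3% of all genes had it. Foxp4 had 5 such intervals of 79 to 765 bp, and Sox6 had 3 of 704 to 1248 bp, each wider than the 298 bp interval at its TSS. Tbx1 had an interval of 1151 bp at 4083 bp from its TSS, where the wider interval at its TSS had 257 bp.

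Of the members, 10 lay in 4 clusters in which neighbours were within 200 kb of each other. In the Foxf1, Foxc2 and Foxl1 cluster on chromosome 8, genes of mesenchyme and lymph vessels, Foxf1 and Foxc2 (distance 31.8 kb) had 1801 and 1093 bp of H3K4me3, and Foxl1, 11.8 kb further on, had none within 1 kb. This cluster held 5 H3K4me3 and 2 HA-Tex10 intervals in 56.3 kb. One HA-Tex10 interval was that of Foxl1, and the other, of 401 bp, lay inside an H3K4me3 interval of 1038 bp between Foxf1 and Foxc2, 7700 bp from Foxc2. The coding genes Gm20388 and Mthfsd also lie in this cluster. Which gene the 401 bp interval belongs to cannot be told from its distance to Foxc2.

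The other 3 clusters had 0 HA-Tex10 intervals. In the Foxq1, Foxf2 and Foxc1 cluster on chromosome 13, Foxf2 had 855 bp and Foxc1 1153 bp, and the widest interval, 2199 bp, was the one in Foxq1 that starts 1716 bp from its TSS. The Tbx2 and Tbx4 pair on chromosome 11, genes of the heart and hindlimb, had 10 H3K4me3 intervals in 93.5 kb, none over 1115 bp. Foxd2 and Foxe3 on chromosome 4, with start sites 17.1 kb apart, had 1 interval each, of 931 and 651 bp. No H3K4me3 interval was counted for a pair of members.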

How the data were processed

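ChIP-seq intervals for H3K4me3 and HA-Tex10 were analysed. The authors deposited interval starts and ends in bp, 1 list for each antibody, with 29072 H3K4me3 and 4331 HA-Tex10 lines, and 1 further list of 2990 distinct HA-Tex10 intervals that share at least 1 bp with H3K4me3. The submitters' processing notes name Bowtie2 2.3.4.3, SAMtools 1.9, MACS2 2.1.2, HOMER and mm10, without roles. The peak threshold, the handling of replicates and of input, and the depth are not given in the sources used here, and all decide which intervals are listed and how wide they are.

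An interval was assigned to every protein-coding gene with a coding-transcript TSS within 1 kb (GENCODE M21, GRCm38.p6, chromosomes 1 to 19). The widest interval was the gene's width. Shares carry Wilson 95% intervals (scipy 1.17.1). Assignment was tested on simulated data, where 150 of 150 planted intervals within 1 kb were recovered and 0 were wrong. They were planted only at genes with a single TSS and no close coding neighbour. Genes with several TSS, split intervals or close neighbours were thus not covered by this test. The members and lists were chosen with earlier results of these data known. Named genes were those with HA-Tex10 within 5 kb, the 10 widest, the 5 narrowest, those with the most separate intervals (5 were planned, but only 2 genes had more than 2 and 18 tied at 2), unmarked genes, up to 4 examples a role list, and relatives outside the symbol rule; others named as examples of a count were chosen after their values were seen.

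Alternatives were the window, TSS containment, the 5′-most TSS alone, a width minimum, merged neighbours, chromosome 8 left out, the further list, and, added after seeing the data, TSS of all annotated transcripts. The values of 1 member and the sequence of 1 interval are not reported here.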

Additional observations from a re-analysis of the deposited data

How the results depend on the processing

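Across 33 alternatives, 29 left a count within 1.5 times its value, or the median width within its 95% interval. The other 4 all concern the 4 genes with HA-Tex10. A window of 5 kb gave 7 genes, intervals that contain a TSS gave 0, intervals at or above the median width of the list gave 1 (Sox15), and the further HA-Tex10 list gave 2 (Foxj3 and Sox15). Over all genes the shares were then 11.2, 4.06, 4.89 and 8.45%. The further list holds only HA-Tex10 intervals that share at least 1 bp with H3K4me3, so the loss of Foxl1 and Tbx6 there was fixed in advance. Among those 29, some still changed a comparison with all genes. H3K4me3 was at 45 members (60.8%, 49.4 to 71.1%) against 54.3% of all genes when an interval had to contain a TSS, and at 46 (62.2%, 50.8 to 72.4%) against 51.5% with intervals at or above the median width, so the share of all genes fell inside the interval in the first case and just inside it in the other. With that width minimum the order of the median widths turned, at 1560.5 bp for members and 1538 bp for all genes. Merging neighbours within 1 kb raised the genes of 3 kb or more from 6 to 9, against 7.52% of all genes. No paired analysis was possible because the lists hold no values of single replicates, of which there is 1 list for each antibody, and leaving out a replicate was not possible either. Sequencing depth limits what can be listed and is not known here. Absence of an interval means only that none was listed.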
